A study of Mus musculus with 21 samples.

Results

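Transcripts of 43 mouse genes of the BMP and TGF-β pathways, chosen by name as ligands, receptors, latent TGF-β binding proteins, antagonists, SMADs and direct target genes, were examined among the 26852 genes of a table of bone marrow Nes low mesenchymal cells. The list was drawn up with earlier results of these data known. Each of the 43 genes had an entry of its own, and 40 of them had a mean log2 value of at least 3.32 over all libraries, the minimum for testing. The RNA-seq set held 21 libraries of sorted Nes low cells. Mice without leukemia gave 3 libraries (ctrl). Mice carrying the human acute myeloid leukemia (AML) lines HL60 or ML1 gave 6 libraries of cherry-positive cells (ch+) and 6 of cherry-negative cells (ch-) at the early stage, and 6 libraries at the late stage, labelled without a cherry marker (late), with 3 libraries of each line in every leukemic group.

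All hosts were NSG mice (NOD-SCID, IL2Rγ null) with a GFP reporter under the Nestin promoter, so that the low GFP signal of the reporter and not endogenous Nes defined the Nes low population, and the hosts lacked T, B and NK cells. The leukemic mice were transplanted at 8 to 12 weeks without conditioning. HL60 and ML1, which are established human AML lines, had been infected to secrete a lipid-permeable mCherry from a PGK promoter. Neighboring cells take it up, and ch- cells came from the same marrows as ch+ cells, although the labels do not pair libraries by mouse. Transplanted animals were 13 to 20 weeks old when killed, and the labels do not say whether any were pooled. The sort had removed human and mouse CD45-positive cells by selection and stained the rest for CD45, Ter119 and CD31. For ML1 late the treatment label reads as without graft while the titles and the time point say late, so values of HL60 late, which do not rest on that label, stand beside pooled late results of the members. The extraction text also speaks of a CD31 sort. Nes was at 6.66 to 7.87 (median 7.36) in late against 7.14, 7.61 and 7.43 in ctrl, with overlapping ranges. Pecam1, which encodes CD31, was at 5.33 to 6.0 in ctrl and 4.53 to 5.60 in late, and Ptprc, which encodes CD45, at 2.49 to 2.61 and 2.36 to 2.54, against 3.81 to 5.58 in ch+ and 2.67 to 5.92 in ch-.

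BMPs, activins and TGF-βs are secreted dimers that join type I and type II serine/threonine kinase receptors, which phosphorylate the receptor SMADs. BMPs mainly act through SMAD1, SMAD5 and SMAD9 and induce the Id genes, TGF-βs and activins mainly through SMAD2 and SMAD3. Extracellular antagonists hold ligands away from receptors, latent binding proteins tether TGF-β to the matrix, and in bone marrow the pathways regulate osteoblast and chondrocyte differentiation and matrix production.

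Values were read as the authors' regularized log2 values, in which a difference of 1 between samples is a doubling before shrinkage. Log2 fold changes carry the standard error (SE) of limma, and a gene was called deregulated at a Benjamini-Hochberg adjusted p under 0.1 over the 12976 genes tested. The paper's methods give a typical yield of reads, but the depth of each library is unknown. Where values without a library are given, libraries were left out 1 at a time. The values summed on the linear scale, in mega-units, came to 11.9 to 14.2 for ctrl libraries, 8.41 to 9.02 for HL60 late and 7.27 to 7.46 for ML1 late. Rescaling the libraries to equal sums raised the typical late change, the median over all genes tested, from 0.02 to 0.71. Relative to that median, the fold changes of the 40 members differed by at most 0.02 from those given here. This follows from the rescaling, which moves all genes of a library alike, and is no test. Late changes are therefore given as changes relative to the typical gene. After rescaling, the median over all genes was 0.58 in HL60 late and 0.84 in ML1 late against ctrl, and 0.63 in pooled late against ch+. Values that turned and calls lost or gained after rescaling are to be read against these medians.

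In late against ctrl, 22 of the 40 members tested were deregulated (55%), 12 higher and 10 lower, against a background of 21.5% of all genes tested, 10.2% higher and 11.4% lower. Their median log2 fold change was 0.04 (0.02 over all genes), and the median size of the change was 0.71 (0.34 over all genes). With HL60, 13 members were higher and 4 lower (background 13.7%, 6.46% higher and 7.24% lower), and with ML1, 14 were higher and 15 lower (background 22%, 9.89% higher and 12.1% lower). After rescaling to equal library sums, 24 were higher and 4 lower with the lines pooled (64% of all genes, 93.8% of these higher), 25 and 3 with HL60 (42.6% of all genes, 93.1% of these higher), and 24 and 5 with ML1 (67.7% of all genes, 93.1% of these higher). The rescaled pooled share was thus near that of all genes, and most calls were higher in both. Late against ch+ gave 11 higher and 14 lower members (background 19.7%, 8.79% higher and 10.9% lower), or 22 and 9 after rescaling (69.6% of all genes, 93.5% of these higher). With HL60 alone, a comparison added after seeing the data, it gave 7 higher and 8 lower (background 10.2%, 4.25% higher and 5.95% lower), or 20 and 1 after rescaling (30.2% of all genes, 90.8% of these higher). With ML1 alone it gave 8 higher and 17 lower (background 16.9%, 7.07% higher and 9.83% lower), or 20 and 9 after rescaling (64% of all genes, 93.4% of these higher). Because the ctrl libraries enter every comparison with ctrl, these counts are not independent of each other. Since the members were chosen with earlier results of these data known, their shares describe the list and do not test the pathway.

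Early changes were fewer. In ch+ against ctrl, 7 members were higher and 0 lower (background 6.17%, 3.41% higher and 2.75% lower), with 13 members at an unadjusted p under 0.05 in limma. Counts at an unadjusted p are given without a share of all genes at that threshold. The number called was 4 without ctrl replicate 374 (4.18% of all genes) and 3 without ctrl replicate 375 (4.89%). With HL60, 8 were higher and 1 lower (background 5.33%, 2.87% higher and 2.46% lower), and with ML1, 7 higher and 1 lower (background 6.69%, 3.47% higher and 3.22% lower). The HL60 count of 9 became 5, 3, 3 and 4 without ctrl replicates 374 and 375 and HL60 ch+ replicates 523 and 525 (4.22%, 4.65%, 3.77% and 4.27% of all genes). The ML1 count of 8 became 5 without any of ctrl replicate 374 and ML1 ch+ replicates 538 and 539 (5.26%, 5.63% and 4.48% of all genes). In ch- against ctrl, 3 members were higher and 0 lower (background 1.92%, 1.13% higher and 0.786% lower), with 7 at an unadjusted p under 0.05 in limma. The number called became 5, 1, 0 and 1 without ctrl replicates 373, 374 and 375 and ML1 ch- replicate 544 (1.73%, 1.05%, 1.05% and 1.53% of all genes). By line, 1 member was higher with HL60 (background 1.57%, 0.894% higher and 0.678% lower) and 3 with ML1 (background 2.34%, 1.42% higher and 0.925% lower), and without ctrl replicate 373 these counts were 4 and 6. Between ch+ and ch-, 4 members were higher in ch+ and 1 lower (background 6.26%, 3.58% higher and 2.68% lower). With HL60 this count was 2 (background 3.92%, 2.27% higher and 1.66% lower) and with ML1 4 (background 4.25%, 2.34% higher and 1.91% lower), with 3 of them higher, which fell to 2 without ML1 ch+ replicate 538 and to 0 without ML1 ch+ replicate 539 or ML1 ch- replicates 543 or 544. The ML1 balance turned to 1 higher and 3 lower without ML1 ch+ replicate 541, and to 1 and 2 without ML1 ch- replicate 546. The difference of ch+ and ch- between the lines, a test added after seeing the data, called 0 of the 40 members in limma, with 3 at an unadjusted p under 0.05 (background 0.00771%, all of it higher).

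The members higher in ch+ with the lines pooled were Bmp6, Tgfbr3, Ltbp2, Ltbp3, Grem1, Chrdl1 and Fst, and those higher in ch- were Bmp6, Grem1 and Id3. By line, the calls in ch+ against ctrl that held with each library left out in turn were Grem1 with HL60 and Bmp6, Tgfbr3, Grem1 and Chrdl1 with ML1, and in ch- they were Id3 with HL60 and Grem1 and Id3 with ML1. Between ch+ and ch-, Tgfbr2 and Ltbp3 held in this way with HL60 and no member with ML1.

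Markers of other cell types also changed between these groups. Of 8 osteoblast and osteocyte markers, 6 fell in late against ctrl (Bglap, Bglap2, Ibsp, Sp7, Alpl and Phex) and 1 rose (Spp1, 0.55 (adjusted p = 0.0563), lost without ctrl replicate 373 (0.49), ctrl replicate 374 (0.53), HL60 late replicate 397 (0.49) and HL60 late replicate 398 (0.39)). Spp1 was called with HL60 (0.85, adjusted p = 0.000578) but not with ML1 (0.24, adjusted p = 0.388). Bglap was the most abundant of them in ctrl and Spp1 in late. Their mean was 13.20 ± 0.10 (SD, n = 3) in ctrl, 12.25 ± 0.21 in HL60 late and 10.34 ± 0.27 in ML1 late, and the log2 of their sum 16.88 to 17.02, 15.58 to 16.22 and 14.48 to 14.97. In ch+, where Bmp3 with HL60 and Bmp7 with ML1 were lower than ctrl, the log2 sums were 16.51 to 16.66, all below ctrl. There 2 of the 8 were lower with HL60, a count of 0 without ctrl replicate 375 or HL60 ch+ replicates 524 or 525 and 1 without ctrl replicate 373 or HL60 ch+ replicate 523, and 2 with ML1, a count of 1 without ctrl replicate 375 or ML1 ch+ replicates 539 or 541, while 0 were lower with the lines pooled (1 at an unadjusted p under 0.05 in limma). Of 12 chondrocyte markers, led by Col2a1, 12 fell in late, 11 in ch+ and 0 in ch- (1 at an unadjusted p under 0.05 in limma). The log2 of their sum was 11.78 to 14.34 in late and 14.14 to 15.35 in ch+, against 15.66 to 16.68 in ch- and 16.47 to 17.44 in ctrl. Of 8 markers of CXCL12-abundant reticular (CAR) cells, led by Cxcl12, 7 rose in late and 7 in ch+, the latter 3 without ctrl replicate 374, with log2 sums of 16.72 to 17.05 in late, 16.22 to 16.82 in ch+ and 15.38 to 16.08 in ctrl. In ch-, 5 rose with ML1, a count of 0 without ctrl replicate 374 or ML1 ch- replicates 544 or 546 and 1 without ctrl replicate 375 and of 0 after rescaling, and 0 with HL60 (1 at an unadjusted p under 0.05 in limma, and 1 without HL60 ch- replicate 528). The sums were 16.04 to 16.48 in ML1 ch- and 15.48 to 16.19 in HL60 ch-. Of 7 smooth muscle markers, led by Mylk, 6 fell in ch+ and 4 in late (sums 11.69 to 12.61 and 12.49 to 13.32, ctrl 13.67 to 14.83), the late count 2 without ctrl replicate 374. After rescaling, 6 osteoblast, 12 chondrocyte and 2 smooth muscle markers were lower and 8 CAR cell markers higher in late.

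Of 8 blood cell markers tested, led by Lyz2, 8 rose in ch+ and 7 in ch-, with log2 sums of 10.00 to 11.26 and 10.41 to 11.44 against 8.04 to 8.89 in ctrl. Late had 6.82 to 8.02, and there Ptprc, Cd52, S100a8, Ltf, Camp, Mpo and Itgam averaged under 3.32. Of 8 red cell markers, led by Hbb-bs, 8 rose in ch+ and 8 in ch- (sums 12.09 to 13.66 and 12.32 to 13.32, ctrl 8.39 to 9.46, late 6.55 to 7.01). In late against ctrl, 4 red cell markers fell, and 4 after rescaling. Blood cell markers lower there numbered 2, with 1 without ctrl replicates 373 or 375, 3 without ctrl replicate 374 and 0 after rescaling. Of 4 skeletal muscle, 3 Schwann cell and 5 pericyte markers, 4 rose, 3 fell and 3 fell in ch+, with log2 sums of 7.05 to 9.25, 4.77 to 5.60 and 12.75 to 12.95 against 5.07 to 6.70, 5.98 to 7.63 and 13.40 to 13.83 in ctrl. The Schwann cell count was 1 without ctrl replicate 374. In ch-, 0 of the 4 skeletal muscle markers were called (4 at an unadjusted p under 0.05 in limma), with sums of 6.26 to 8.37. The number called was 3 without ctrl replicate 373 or HL60 ch- replicate 528, and 1 without ML1 ch- replicates 543 or 544. With ML1, 2 of 7 smooth muscle markers were lower in ch-, or 3 after rescaling. That count was 0 without ctrl replicates 373 or 374 or any ML1 ch- library, and 4 without ctrl replicate 375. Of 7 endothelial markers, 5 fell in ML1 late, a count of 2 without ML1 late replicates 582 or 583 and 3 without ctrl replicates 374 or 375 or ML1 late replicate 581 and of 1 after rescaling, and 0 in HL60 late (0 at an unadjusted p under 0.05 in limma; sums 7.94 to 8.27 and 8.21 to 8.89, ctrl 8.43 to 8.73). In HL60 ch+ their sums were 9.27 to 9.51, above every ctrl and every HL60 ch- library (7.77 to 8.96), and 2 of them, Cdh5 and Stab2, were called higher there than in HL60 ch-, Cdh5 not without HL60 ch+ replicate 523 (1.13), HL60 ch+ replicate 525 (1.1), HL60 ch- replicate 527 (1.25) and HL60 ch- replicate 528 (1.08). In the same comparison, in which Tgfbr2 and Ltbp3 were called, 11 of 12 chondrocyte, 5 of 7 smooth muscle, 3 of 5 pericyte and 3 of 3 Schwann cell markers were lower. The pericyte count was 0 without HL60 ch- replicate 528 and 1 without HL60 ch+ replicates 523 or 525, and 0 after rescaling. Between ML1 ch+ and ML1 ch- the lower markers of these lists numbered 11, 5, 3 and 3. The part of all these cells in the changes of the pathway genes was not tested. In such bulk samples fewer cells of a type and less RNA per cell cannot be told apart.

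Among the ligands, the levels turned over between ctrl and late. Per kilobase of exon, the highest mean log2 levels in ctrl were those of Bmp3 (9.77) and Bmp4 (8.46), followed by Bmp6 (7.26), Tgfb3 (7.13), Bmp2 (6.92), Tgfb1 (6.66) and Bmp7 (6.64), and the SDs of neighbors from Bmp6 to Bmp7 overlapped. In HL60 late the highest were Bmp6 (9.01), Tgfb3 (8.85), Bmp4 (8.57), Bmp3 (8.33) and Bmp5 (7.89), and Bmp7 stood at 5.28. In ML1 late they were Tgfb3 (8.90), Bmp6 (8.82), Bmp5 (7.57), Bmp4 (7.30) and Bmp2 (6.67), with Bmp3 at 5.75 and Bmp7 at 3.67. Of 12 ligands tested, 3 rose in late (Bmp5, Bmp6 and Tgfb3) and 2 fell (Bmp3 and Bmp7), against a background of 10.2% higher and 11.4% lower.

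Bmp3 encodes a BMP of bone that opposes osteogenic BMP signaling. Its log2 values were 12.73, 12.47 and 12.77 in ctrl, 12.21 to 12.66 (median 12.46) in ch-, 11.90 to 12.67 (median 11.98) in ch+, 11.29, 11.50 and 10.87 in HL60 late and 8.96, 8.63 and 8.34 in ML1 late. All late libraries lay below every other library, and all ML1 late below all HL60 late libraries. Bmp3 fell in late by −2.73 ± 0.45 (SE, adjusted p = 4.35e-05) on the log2 scale, by −1.44 ± 0.18 (SE, adjusted p = 1.01e-06) with HL60 and by −4.01 ± 0.18 (SE, adjusted p = 6.92e-17) with ML1. HL60 and ML1 late differed by 2.58 ± 0.18 (SE, adjusted p = 1.57e-11). In ch+ with HL60 it was lower than ctrl by −0.65 (adjusted p = 0.0367), a call lost without ctrl replicate 373 (−0.61), ctrl replicate 375 (−0.59), HL60 ch+ replicate 523 (−0.59) and HL60 ch+ replicate 525 (−0.59). Bmp7, an osteogenic BMP, was at 8.93, 8.39 and 8.62 in ctrl, 8.09 to 8.73 (median 8.44) in ch-, 7.22 to 8.45 (median 7.77) in ch+, 7.82, 7.14 and 6.91 in HL60 late and 5.60, 6.31 and 5.11 in ML1 late. Late libraries all lay below ctrl, and ML1 late below every other library, while HL60 late overlapped ch+. The fold change in late was −2.16 ± 0.37 (SE, adjusted p = 8.55e-05), with −1.36 (adjusted p = 0.00387) for HL60, −2.97 (adjusted p = 2.21e-08) for ML1 and 1.61 (adjusted p = 0.00153) between the lines. In ch+ with ML1 the value was −0.99 (adjusted p = 0.0738), lost without ctrl replicate 373 (−0.85), ctrl replicate 375 (−1.0), ML1 ch+ replicate 538 (−0.77) and ML1 ch+ replicate 539 (−0.81).

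Bmp4, another osteogenic BMP, was at 9.55, 9.54 and 9.81 in ctrl, 9.78 to 10.59 (median 10.11) in ch-, 9.61 to 10.80 (median 10.30) in ch+, 9.83, 9.50 and 9.88 in HL60 late and 8.49, 8.09 and 8.83 in ML1 late. HL60 late overlapped ctrl, and ML1 late lay below every other library. With the lines pooled its late fold change was −0.53 (adjusted p = 0.241), which turned to 0.16 after rescaling and passed the threshold without HL60 late replicate 399 (−0.69). It was 0.10 (adjusted p = 0.861) with HL60 and −1.16 (adjusted p = 0.000287) with ML1, the latter −0.35 (adjusted p = 0.202) after rescaling to equal sums, and 1.27 (adjusted p = 0.000449) between the lines. Bmp4 fell from ch+ to late by −1.15 (adjusted p = 0.000627), or −0.53 after rescaling, and by −0.69 (adjusted p = 0.0596) with HL60 alone, lost without HL60 late replicate 397 (−0.74), HL60 late replicate 398 (−0.58), HL60 ch+ replicate 524 (−0.64) and HL60 ch+ replicate 525 (−0.51) and after rescaling (−0.22, adjusted p = 0.513). In ch+ with HL60 it was higher than ctrl by 0.80 (adjusted p = 0.0453), lost without ctrl replicate 373 (0.76), ctrl replicate 374 (0.75), HL60 ch+ replicate 524 (0.75) and HL60 ch+ replicate 525 (0.61).

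Bmp5, Bmp6 and Tgfb3 moved the other way with both lines. Bmp6, a BMP that also induces hepcidin, was at 9.40, 9.12 and 9.15 in ctrl, 9.67 to 10.03 (median 9.82) in ch-, 9.27 to 10.35 (median 10.08) in ch+, 11.07, 10.85 and 11 in HL60 late and 10.58, 10.75 and 11.03 in ML1 late. Late libraries lay above all others, and every early library but HL60 ch+ replicate 524 above ctrl. The fold change was 1.66 ± 0.17 (SE, adjusted p = 6.63e-08) in late, 0.77 ± 0.17 (SE, adjusted p = 0.00679) in ch+ and 0.61 ± 0.17 (SE, adjusted p = 0.0798) in ch-. The ch- call was lost without any of ctrl replicate 374 (0.56), ctrl replicate 375 (0.58), HL60 ch- replicate 527 (0.57), ML1 ch- replicate 543 (0.62) and ML1 ch- replicate 544 (0.59) and after rescaling (0.54). By line, Bmp6 rose in late by 1.75 with HL60 and 1.56 with ML1, and in ch+ by 0.98 (adjusted p = 0.000914) with ML1 and by 0.55 (adjusted p = 0.0947) with HL60, the last lost without ctrl replicate 374 (0.50), ctrl replicate 375 (0.52), HL60 ch+ replicate 523 (0.37) and HL60 ch+ replicate 525 (0.48). Tgfb3, a TGF-β isoform, was at 8.97, 8.96 and 8.75 in ctrl, 8.72 to 9.28 (median 9.02) in ch-, 8.18 to 9.46 (median 8.93) in ch+, 10.87, 10.06 and 10.88 in HL60 late and 10.85, 10.30 and 10.82 in ML1 late. All 6 late libraries exceeded all others, and the early groups overlapped ctrl. Its fold change was 1.74 ± 0.23 (SE, adjusted p = 1.66e-06) in late, 1.72 with HL60 and 1.76 with ML1. Bmp5, a BMP of skeletal tissue, was at 8.61, 8.10 and 8.48 in ctrl, 8.29 to 9.19 (median 8.79) in ch-, 8.38 to 9.59 (median 9.05) in ch+, 9.86, 9.95 and 9.88 in HL60 late and 9.48, 9.76 and 9.51 in ML1 late. Late libraries all lay above ctrl, and ML1 ch+ replicate 539 (9.59) reached into the late range. Bmp5 rose by 1.34 ± 0.21 (SE, adjusted p = 2.59e-05) in late, 1.5 with HL60 and 1.19 with ML1. HL60 late libraries all lay above ML1 late, without a call (0.31, adjusted p = 0.794). Exons of Txndc5 and of Gm26903 overlap those of Bmp6 and Bmp5 on the opposite strand, by 224 and 1878 bases.

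Inhba and Inhbb encode the β subunits of activin A and activin B, and Gdf10 encodes a BMP3-related factor. Inhba was at 8.60, 8.04 and 6.99 in ctrl, 7.01 to 7.98 (median 7.87) in ch-, 7.93 to 8.84 (median 8.23) in ch+, 7.65, 6.95 and 7.29 in HL60 late and 8.77, 9.12 and 8.67 in ML1 late. HL60 late overlapped the wide range of ctrl, with replicate 398 just below it, and ML1 late lay above ctrl. The lines differed in late by −1.56 ± 0.31 (SE, adjusted p = 0.0014), with −0.58 (adjusted p = 0.283) for HL60 against ctrl, called without ctrl replicate 375 (−1.02), and 0.98 (adjusted p = 0.0234) for ML1, lost without ctrl replicate 375 (0.53) and ML1 late replicate 582 (0.84). In ch+ against ch- with ML1 it rose by 1.01 (adjusted p = 0.0718), lost without ML1 ch+ replicate 539 (0.87), ML1 ch+ replicate 541 (0.96), ML1 ch- replicate 543 (1.1) and ML1 ch- replicate 544 (0.74). Inhbb was at 6.12, 5.04 and 5.04 in ctrl, 4.21 to 6.76 (median 5.35) in ch-, 5.03 to 5.51 (median 5.20) in ch+, 5.78, 6.53 and 5.00 in HL60 late and 6.62, 7.09 and 6.64 in ML1 late. ML1 late lay above ctrl and ch+ and HL60 late overlapped both. The fold change was 1.06 (adjusted p = 0.0556) from ch+ to late, lost without ML1 late replicate 581 (0.99), ML1 late replicate 582 (0.89) and ML1 late replicate 583 (0.98), and 1.38 (adjusted p = 0.0594) in ML1 late against ctrl, lost without ctrl replicate 374 (1.2), ctrl replicate 375 (1.2), ML1 late replicate 582 (1.23) and ML1 late replicate 583 (1.45). From ch+ to late it was 0.44 (adjusted p = 0.743) with HL60 alone. Pooled late against ctrl (0.88, 0.37 with HL60) was called without HL60 late replicate 399 (1.13). Gdf10 was at 8.18, 8.18 and 7.88 in ctrl, 7.74 to 8.53 (median 8.08) in ch-, 7.28 to 8.56 (median 7.99) in ch+, 8.47, 8.05 and 8.79 in HL60 late and 7.12, 7.07 and 7.10 in ML1 late. ML1 late lay below every other library and HL60 late overlapped ctrl. Gdf10 differed between the lines by 1.34 ± 0.29 (SE, adjusted p = 0.00385), and fell in ML1 late by −0.98 (adjusted p = 0.0151), or −0.17 (adjusted p = 0.638) after rescaling.

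The remaining ligands had smaller differences. Tgfb1, the TGF-β isoform most studied in bone matrix, had means of 9.0 ± 0.08 (SD, n = 3) in ctrl and 8.72 ± 0.20 (n = 6) in late. The difference of −0.28 (−0.24 for HL60) missed the threshold (adjusted p = 0.341). After rescaling it turned to 0.42 (adjusted p = 0.0503) and was called higher, but stayed below the rescaled median of all genes (0.71). Tgfb2, another isoform, was at 8.18 ± 0.32 in ch-, 7.57 ± 0.39 in ch+ and 8.29 ± 0.18 in late (n = 6 each). It was lower in ch+ than in ch- by −0.61 (adjusted p = 0.0454), lost without HL60 ch+ replicate 523 (−0.49) and HL60 ch- replicate 527 (−0.52) and after rescaling (−0.46), and higher in late than in ch+ by 0.73 (adjusted p = 0.00448). The latter was 0.69 (adjusted p = 0.119) with HL60 alone, called without HL60 ch+ replicate 524 (0.93). Bmp2, an osteogenic BMP, ranged from 8.43 to 9.14 in ctrl and from 8.12 to 8.81 in late and was not called, although ch+ against ch- (−0.63, adjusted p = 0.117) was called without HL60 ch+ replicate 523 (−0.80), HL60 ch- replicate 527 (−0.77) and ML1 ch- replicate 546 (−0.72). Gdf5 and Gdf6, factors of joint formation, lay under the filter, with 1.53 to 1.85 and 2.26 to 2.33 in ctrl and 1.52 to 1.84 and 2.21 to 3.56 in late. Gdf6 was at 2.86 to 4.44 (median 3.77) in ch-.

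**Figure D1:**
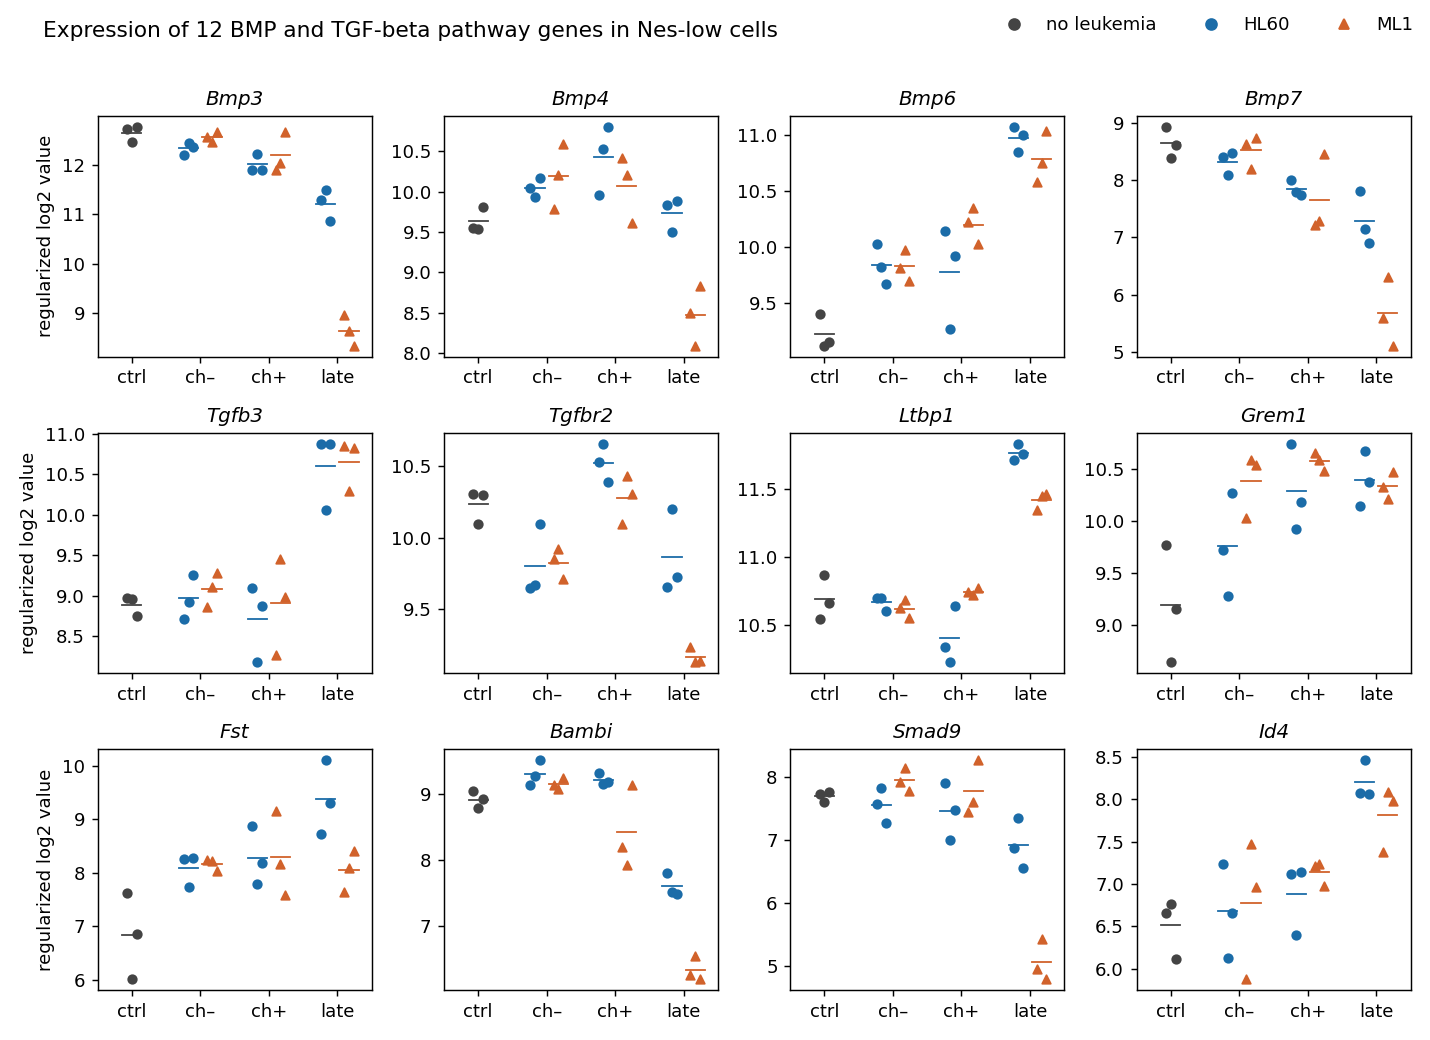
Regularized log2 values (vertical axes) of 12 pathway genes in Nes low cells, with 1 point per library and a line at the mean of each group of 3, for ctrl, ch-, ch+ and late. In late, Bmp3 and Bambi lay below and Tgfb3, Bmp6 and Ltbp1 above all other libraries, and ML1 late libraries were lower than HL60 late libraries for Bmp3, Bmp4, Bmp7, Tgfbr2, Fst, Bambi and Smad9.

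Of 8 receptors tested, 3 rose in late (Tgfbr3, Acvr1 and Acvr2a) and 1 fell (Tgfbr2), against a background of 10.2% higher and 11.4% lower. Tgfbr2 encodes the type II receptor for TGF-β. It was at 10.31, 10.10 and 10.30 in ctrl, 9.65 to 10.10 (median 9.78) in ch-, 10.10 to 10.66 (median 10.41) in ch+, 9.66, 10.20 and 9.73 in HL60 late and 9.24, 9.13 and 9.14 in ML1 late. ML1 late lay below every other library, and ch- and ch+ met at 10.10. It fell in late by −0.72 ± 0.18 (SE, adjusted p = 0.00585), or −0.02 (adjusted p = 0.906) after rescaling. By line it was −0.37 (adjusted p = 0.177) with HL60, called without HL60 late replicate 398 (−0.54), and −1.06 (adjusted p = 1.26e-05) with ML1 (−0.25 after rescaling, not called). The lines differed by 0.69 (adjusted p = 0.0112), lost without HL60 late replicate 398 (0.52) and after rescaling (0.45). In ch+ it was higher than in ch- by 0.58 ± 0.15 (SE, adjusted p = 0.0166). Tgfbr1, the type I partner, was also higher in ch+ than in ch-, by 0.43 (adjusted p = 0.0902). Any 1 of HL60 ch+ replicate 525, HL60 ch- replicates 527, 528 or 529, ML1 ch+ replicates 539 or 541 and ML1 ch- replicates 543, 544 or 546 left out ended that call, with 0.35 to 0.48 over the left-out libraries. Tgfbr1 was lower in late than in ch+ by −0.40 (adjusted p = 0.056), which turned to 0.22 after rescaling and was lost without ML1 late replicate 581 (−0.34), ML1 late replicate 583 (−0.39), HL60 late replicate 398 (−0.35), ML1 ch+ replicate 539 (−0.32) and ML1 ch+ replicate 541 (−0.35). It was −0.23 (adjusted p = 0.623) with HL60 alone, also turning, to 0.24.

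Tgfbr3, or betaglycan, presents TGF-β2 to the type II receptor and had the highest level per kilobase of the receptors in ctrl (8.26 on the log2 scale), ahead of Bmpr2 (7.76). Its means were 10.97 ± 0.16 (SD, n = 3) in ctrl, 11.67 ± 0.34 in late, 11.53 ± 0.16 in ch+ and 11.26 ± 0.37 in ch- (n = 6 each), and every late and ch+ library lay above every ctrl library. It rose by 0.70 (adjusted p = 0.00775) in late and by 0.56 (adjusted p = 0.0881) in ch+, where leaving out any of ctrl replicates 373, 374 or 375, HL60 ch+ replicate 525 and ML1 ch+ replicates 538, 539 or 541 ended the call (0.51 to 0.65). By line the late change was 0.74 (adjusted p = 0.00439) with HL60, and 0.65 (adjusted p = 0.00769) with ML1. Exons of Gm43422 overlap Tgfbr3 on the same strand by 297 bases, so reads there could belong to either. Acvr1, the type I receptor ALK2, was at 8.74 ± 0.08 in ctrl and 9.45 ± 0.19 in late. It rose by 0.71 (adjusted p = 0.00415), with all late libraries above ctrl, by 0.62 (adjusted p = 0.0237) with HL60, lost without HL60 late replicate 397 (0.55) and HL60 late replicate 399 (0.53), and 0.79 (adjusted p = 0.00172) with ML1. Acvr2a, a type II activin receptor, rose by 0.87 (adjusted p = 0.0177) in late, with 8.92 to 9.48 there and 9.16, 7.27 and 8.65 in ctrl, so the ranges overlapped. By line it was 0.93 (adjusted p = 0.0415) with HL60, lost without ctrl replicate 374 (0.39), HL60 late replicate 398 (0.91) and HL60 late replicate 399 (0.90), and 0.81 (adjusted p = 0.0618) with ML1, lost without ctrl replicate 374 (0.26), ML1 late replicate 582 (0.66) and ML1 late replicate 583 (0.84). The pooled call rested on ctrl replicate 374, as without it the value was 0.33 and not called. Bmpr2, the BMP type II receptor, was at 11.93 ± 0.10 in ctrl and 12.10 ± 0.09 in late, and rose from ch+ to late by 0.30 (adjusted p = 0.0172), but 0.21 (adjusted p = 0.346) with HL60 alone was not called. Bmpr1a and Acvrl1, type I receptors, were not called, with 9.63 to 10.24 and 5.12 to 5.77 in ctrl and 9.77 to 10.22 and 5.77 to 6.32 in late. Bmpr1b lay under the filter, at 3.61, 3.02 and 2.55 in ctrl and 1.83 to 2.09 in late.

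The latent TGF-β binding proteins changed at different stages. Ltbp1, which binds the latent TGF-β complex, was at 10.54, 10.87 and 10.66 in ctrl, 10.55 to 10.70 (median 10.65) in ch-, 10.22 to 10.77 (median 10.68) in ch+, 11.72, 11.84 and 11.76 in HL60 late and 11.35, 11.45 and 11.47 in ML1 late. Only the late libraries were high, all above every other library. Ltbp1 rose in late by 0.91 ± 0.14 (SE, adjusted p = 1.61e-05), 1.09 with HL60 and 0.73 with ML1. Ltbp2, a matrix protein of the family that does not bind latent TGF-β, was at 10.84, 9.96 and 9.54 in ctrl, 9.92 to 10.66 (median 10.31) in ch-, 10.62 to 11.31 (median 11.14) in ch+, 11.48, 10.92 and 11.43 in HL60 late and 11.89, 11.09 and 11.91 in ML1 late. Late libraries lay above ctrl, and ch+ overlapped ctrl through ctrl replicate 373. It rose in late by 1.34 ± 0.23 (SE, adjusted p = 7.11e-05), with 1.16 for HL60 and 1.52 for ML1, in ch+ against ctrl by 0.89 (adjusted p = 0.0207) and in ch+ against ch- by 0.70 (adjusted p = 0.0214). Without ctrl replicate 374 (0.81) and ctrl replicate 375 (0.60) the ch+ call against ctrl was lost.

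Ltbp3, which is needed for latent TGF-β secretion in bone, had its highest mean in ch+, with means of 10.80 ± 0.24 in ch+ against 9.98 ± 0.14 in ch- and 10.24 ± 0.21 in late (SD, n = 6 each) and 10.24 ± 0.32 in ctrl (n = 3). All ch+ libraries exceeded all ch- libraries, with a fold change of 0.82 ± 0.13 (SE, adjusted p = 5.51e-05), 1.07 (adjusted p = 0.00013) with HL60 and 0.58 (adjusted p = 0.0595) with ML1. The ML1 call was lost without ML1 ch+ replicate 538 (0.52), ML1 ch+ replicate 539 (0.50), ML1 ch- replicate 543 (0.58), ML1 ch- replicate 544 (0.56) and ML1 ch- replicate 546 (0.58). Against ctrl it rose in ch+ by 0.57 (adjusted p = 0.0344), lost without ctrl replicate 375 (0.38), and from ch+ to late it was lower by −0.56 (adjusted p = 0.00189), which turned to 0.05 after rescaling. The latter was −0.62 (adjusted p = 0.0189) with HL60 alone, lost without HL60 late replicate 399 (−0.50) and HL60 ch+ replicate 524 (−0.51) and after rescaling (−0.14, adjusted p = 0.583). Libraries of ch+ overlapped those of ctrl and of late, and late against ctrl (0.00) was called higher after rescaling (0.70, adjusted p = 0.00148). This was close to the rescaled median of all genes (0.71). With HL60 alone late against ctrl was 0.08 (adjusted p = 0.855), or 0.65 (adjusted p = 0.00902) after rescaling. Ltbp4, which binds TGF-β1 complexes weakly and organizes elastic fibers, was at 8.01, 8.28 and 8.41 in ctrl, 8.21 to 9.0 (median 8.65) in ch-, 8.64 to 9.39 (median 8.83) in ch+, 7.78, 8.79 and 8.11 in HL60 late and 7.41, 6.73 and 7.12 in ML1 late. ML1 late lay below every other library and HL60 late overlapped ctrl. The lines differed in late by 1.14 (adjusted p = 0.00616), lost without HL60 late replicate 398 (0.86). Ltbp4 fell in ML1 late by −1.15 (adjusted p = 0.00137), or −0.33 (adjusted p = 0.247) after rescaling, and from ch+ to pooled late by −1.27 (adjusted p = 0.000162), there −0.65 after rescaling. This fall was −0.72 (adjusted p = 0.09) with HL60 alone, lost without HL60 late replicate 397 (−0.50), HL60 late replicate 399 (−0.66), HL60 ch+ replicate 524 (−0.50) and HL60 ch+ replicate 525 (−0.80) and after rescaling (−0.25, adjusted p = 0.478). Pooled late against ctrl (−0.58, turning to 0.12 after rescaling) was called without HL60 late replicate 398 (−0.80), and with HL60 alone it was −0.01 (adjusted p = 0.995), turning to 0.56 (adjusted p = 0.081).

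Among the antagonists, Grem1 and Fst were already high at the early stage. Grem1 encodes gremlin, which binds BMP2, BMP4 and BMP7. It was at 9.77, 8.64 and 9.15 in ctrl, 9.28 to 10.58 (median 10.15) in ch-, 9.92 to 10.74 (median 10.53) in ch+, 10.14, 10.67 and 10.37 in HL60 late and 10.32, 10.21 and 10.47 in ML1 late. All ch+ and late libraries lay above ctrl, and ch- overlapped ctrl through HL60 libraries. Grem1 rose by 1.24 ± 0.24 (SE, adjusted p = 0.00124) in ch+, 1.18 ± 0.24 (SE, adjusted p = 0.000521) in late (1.21 with HL60 and 1.15 with ML1) and 0.88 ± 0.24 (SE, adjusted p = 0.0588) in ch-, where the call was lost without any of ctrl replicate 374 (0.61), ctrl replicate 375 (0.87), HL60 ch- replicate 529 (0.84), ML1 ch- replicate 544 (0.78) and ML1 ch- replicate 546 (0.79) and after rescaling (0.81). By line the ch- value was 1.19 (adjusted p = 0.00651) with ML1 and 0.57 (adjusted p = 0.36) with HL60, the latter called without ctrl replicate 373 (0.86). Markers of CAR cells were called in ch- with ML1 (5 of 8) and not with HL60 (0 of 8, 1 at an unadjusted p under 0.05 in limma), and their part in the Grem1 values was not tested. The ML1 count of these markers was 0 after rescaling, 0 without ctrl replicate 374 or ML1 ch- replicates 544 or 546, and 1 without ctrl replicate 375. Fst encodes follistatin, which sequesters activins. It was at 7.62, 6.02 and 6.85 in ctrl, 7.74 to 8.27 (median 8.23) in ch-, 7.59 to 9.16 (median 8.17) in ch+, 8.73, 10.10 and 9.31 in HL60 late and 7.65, 8.09 and 8.40 in ML1 late. Every leukemic library but ML1 ch+ replicate 541 exceeded ctrl, and HL60 late exceeded ML1 late. Fst rose by 1.88 ± 0.38 (SE, adjusted p = 0.000628) in late and 1.46 ± 0.38 (SE, adjusted p = 0.0248) in ch+, the latter lost without ctrl replicate 374 (1.06). In ch- it missed the threshold with the lines pooled (1.29, adjusted p = 0.108) and was called without ctrl replicate 373 (1.69) and HL60 ch- replicate 528 (1.37). Fst from ch+ to late was 1.1 (adjusted p = 0.0755) with HL60 alone, lost without HL60 late replicate 398 (0.74), HL60 late replicate 399 (1.13), HL60 ch+ replicate 524 (0.85) and HL60 ch+ replicate 525 (1.04), and −0.25 (adjusted p = 0.764) with ML1, the latter turning to 0.51 after rescaling. The late fold change against ctrl was 2.55 (adjusted p = 1.27e-05) with HL60 and 1.2 (adjusted p = 0.0209) with ML1, the latter lost without ctrl replicate 374 (0.81) and ML1 late replicate 583 (1.04). The difference between the lines was 1.33 (adjusted p = 0.0431), lost without ML1 late replicate 581 (1.14), ML1 late replicate 582 (1.35) and HL60 late replicate 398 (0.97) and after rescaling (1.09).

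Chrdl1, a chordin-like BMP antagonist, was higher in ch+ than in ctrl and late. It was at 10.94, 10.32 and 9.99 in ctrl, 10.83 to 11.14 (median 11.02) in ch-, 10.90 to 11.53 (median 11.28) in ch+, 10.26, 10.73 and 10.29 in HL60 late and 9.76, 9.72 and 10.05 in ML1 late. All late libraries lay below all ch+ libraries, and ctrl replicate 373 overlapped both early groups. Chrdl1 rose in ch+ by 0.82 ± 0.19 (SE, adjusted p = 0.0109), lost without ctrl replicate 375 (0.61), and fell from ch+ to late by −1.1 ± 0.16 (SE, adjusted p = 5.45e-06), or −0.49 after rescaling, and by −0.74 (adjusted p = 0.0146) with HL60 alone, lost after rescaling (−0.27, adjusted p = 0.378). Pooled late against ctrl was −0.28 (adjusted p = 0.384), which turned to 0.41 (adjusted p = 0.0758) and was called higher after rescaling, but stayed below the rescaled median of all genes (0.71). With HL60 alone it was 0.01 (adjusted p = 0.988), or 0.58 (adjusted p = 0.0408) after rescaling. In ch- (0.60, adjusted p = 0.159) it was called without ctrl replicate 373 (0.86). In ML1 late it was lower than ctrl by −0.57 (adjusted p = 0.039), which turned to 0.24 after rescaling and was lost without ctrl replicate 373 (−0.31), ML1 late replicate 581 (−0.53) and ML1 late replicate 582 (−0.51). Bambi, a pseudoreceptor that blocks type I receptors and is itself induced by BMP and TGF-β, was at 9.04, 8.78 and 8.92 in ctrl, 9.07 to 9.51 (median 9.19) in ch-, 7.92 to 9.31 (median 9.14) in ch+, 7.80, 7.52 and 7.49 in HL60 late and 6.26, 6.55 and 6.20 in ML1 late. All late libraries lay below every other library, ML1 late lowest, and ML1 ch+ replicates 538 and 539 below ctrl. Bambi fell in late by −1.94 ± 0.31 (SE, adjusted p = 3e-05), −1.31 with HL60 and −2.58 with ML1, and the lines differed by 1.27 (adjusted p = 0.000692). Chrd encodes chordin, which binds BMPs, and was low, at 5.03, 5.36 and 4.51 in ctrl, 3.35 to 5.57 (median 4.63) in ch-, 4.04 to 5.55 (median 4.59) in ch+, 4.17, 4.08 and 3.82 in HL60 late and 3.58, 4.18 and 3.62 in ML1 late. Late libraries lay below ctrl and overlapped both early groups. It fell in late by −1.06 (adjusted p = 0.0601), lost without ctrl replicate 373 (−1.03), ctrl replicate 374 (−0.86), ML1 late replicate 581 (−0.99) and ML1 late replicate 583 (−1.0) and after rescaling (−0.37). By line it was −0.94 (adjusted p = 0.22) with HL60, and −1.17 (adjusted p = 0.0732) with ML1, lost without ctrl replicate 373 (−1.14), ctrl replicate 374 (−0.98), ML1 late replicate 581 (−1.07) and ML1 late replicate 583 (−1.09), and the ML1 call was lost after rescaling (−0.36). Nog, or noggin, lay close to the filter at 3.33 to 3.77 in ctrl and 3.02 to 4.46 in late, and its rise from ch+ to late (0.64, adjusted p = 0.0909) was lost without any of ML1 late replicate 583, HL60 late replicates 398 or 399, HL60 ch+ replicate 524 and ML1 ch+ replicates 538, 539 or 541 (0.50 to 0.79 over the left-out libraries), and it was 0.75 (adjusted p = 0.259) with HL60 alone.

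Of the 5 SMADs, 3 fell in late (Smad3, which turned to 0.14 after rescaling, Smad6 and Smad9) and 1 rose (Smad7), against a background of 11.4% lower and 10.2% higher. Smad9 encodes SMAD9 (SMAD8), a receptor SMAD of BMP signaling that is also a BMP target. It was at 7.73, 7.60 and 7.76 in ctrl, 7.27 to 8.15 (median 7.81) in ch-, 7.0 to 8.27 (median 7.54) in ch+, 6.87, 7.35 and 6.56 in HL60 late and 4.94, 5.43 and 4.79 in ML1 late. Late libraries all lay below ctrl, HL60 late overlapped the early groups, and ML1 late lay below every other library. Smad9 fell by −1.71 ± 0.40 (SE, adjusted p = 0.00261) in late. It was −0.77 (adjusted p = 0.114) with HL60, called without HL60 late replicate 398 (−0.98), and −2.65 (adjusted p = 7.23e-08) with ML1, a difference between the lines of 1.88 (adjusted p = 0.000103). The inhibitory SMADs went apart. Smad6, which blocks mainly BMP receptors, had 8.28 ± 0.42 (SD, n = 3) in ctrl and 7.40 ± 0.49 (n = 6) in late and fell by −0.88 (adjusted p = 0.0109), or −0.19 (adjusted p = 0.479) after rescaling. By line it was −0.53 (adjusted p = 0.238) with HL60, called without ctrl replicate 373 (−0.76), and −1.23 (adjusted p = 0.000649) with ML1, and the ML1 call was lost after rescaling (−0.42). Smad7, which blocks TGF-β and BMP receptors, had 7.62 ± 0.25 and 8.49 ± 0.18 and rose by 0.87 (adjusted p = 0.00633), with all late libraries above ctrl. By line, Smad7 rose by 0.84 (adjusted p = 0.0311) with HL60, lost without ctrl replicate 375 (0.73), HL60 late replicate 398 (0.79) and HL60 late replicate 399 (0.76), and by 0.89 (adjusted p = 0.0143) with ML1. Smad3, the receptor SMAD of TGF-β and activin, fell in late by −0.55 (adjusted p = 0.0969), which turned to 0.14 after rescaling, and leaving out any of ctrl replicates 373, 374 or 375, ML1 late replicates 582 or 583 and HL60 late replicates 397, 398 or 399 ended the call (−0.67 to −0.47). By line it was −0.73 (adjusted p = 0.0334) with HL60, lost without ctrl replicate 375 (−0.68) and HL60 late replicate 398 (−0.60), and −0.38 (adjusted p = 0.282) with ML1, where the ML1 value turned to 0.43 and the HL60 value was −0.16 after rescaling. Smad1, a receptor SMAD of BMP signaling, was not called with the lines pooled (−0.35, adjusted p = 0.449, turning to 0.35 after rescaling, and 0.01 with HL60). In ML1 late it was −0.70 (adjusted p = 0.0931), which turned to 0.11 after rescaling and was lost with any ctrl or ML1 late library left out (−0.78 to −0.58).

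The Id genes, which encode inhibitors of basic helix-loop-helix factors and are induced by BMP, did not move as a block. Id4 was at 6.66, 6.76 and 6.12 in ctrl, 5.88 to 7.47 (median 6.81) in ch-, 6.40 to 7.23 (median 7.13) in ch+, 8.07, 8.46 and 8.06 in HL60 late and 7.38, 8.08 and 7.98 in ML1 late. Late libraries all exceeded ctrl, and Id4 rose by 1.49 ± 0.30 (SE, adjusted p = 0.000589), 1.68 with HL60 and 1.30 with ML1. Id2 was at 7.20, 7.68 and 7.18 in ctrl, 7.06 to 8.40 (median 8.24) in ch-, 7.18 to 8.22 (median 7.81) in ch+, 6.30, 7.06 and 7.16 in HL60 late and 5.29, 6.0 and 5.87 in ML1 late. Late libraries all lay below ctrl. Id2 fell by −1.08 ± 0.34 (SE, adjusted p = 0.0251) in late, lost without ctrl replicate 374 (−0.91) and after rescaling (−0.38), and from ch+ to late by −1.5 ± 0.27 (SE, adjusted p = 0.000151), there −0.88 after rescaling. This fall was −1.15 (adjusted p = 0.0267) with HL60 alone, lost without HL60 late replicate 397 (−0.88) and HL60 ch+ replicate 523 (−1.03) and after rescaling (−0.67, adjusted p = 0.146). It fell in ML1 late by −1.63 (adjusted p = 0.000414) and was −0.52 (adjusted p = 0.401) in HL60 late, a difference between the lines of 1.12 (adjusted p = 0.0587), lost without ML1 late replicate 581 (0.90), ML1 late replicate 583 (1.19), HL60 late replicate 398 (1.01) and HL60 late replicate 399 (0.96) and after rescaling (0.87).

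Id1 and Id3 differed between the lines in late. Id1 was at 7.02, 6.56 and 7.29 in ctrl, 7.34 to 8.32 (median 8.03) in ch-, 6.56 to 7.98 (median 7.41) in ch+, 7.32, 7.73 and 7.49 in HL60 late and 4.73, 6.20 and 6.31 in ML1 late. HL60 late lay above and ML1 late below ctrl, without overlap. The lines differed by 1.77 ± 0.36 (SE, adjusted p = 0.00229), with 0.56 (adjusted p = 0.417) for HL60 against ctrl and −1.21 (adjusted p = 0.0172) for ML1, the latter lost without ML1 late replicate 581 (−0.70) and after rescaling (−0.40). Id3, the Id gene with the highest level per kilobase in ctrl (8.95 on the log2 scale), was at 9.74, 9.96 and 9.66 in ctrl, 10.44 to 10.83 (median 10.62) in ch-, 9.97 to 10.39 (median 10.16) in ch+, 9.94, 10.37 and 10.48 in HL60 late and 9.51, 9.25 and 9.50 in ML1 late. All early libraries lay above ctrl, ch- most, HL60 late overlapped ctrl by replicate 397, and ML1 late lay below ctrl. Id3 rose in ch- by 0.84 ± 0.20 (SE, adjusted p = 0.0253), lost without ctrl replicate 375 (0.78), with 0.92 (adjusted p = 0.000852) for HL60 and 0.76 (adjusted p = 0.00701) for ML1. In late the lines differed by 0.85 (adjusted p = 0.000681). Against ctrl Id3 was 0.48 (adjusted p = 0.0478) in HL60 late, lost without ctrl replicate 373 (0.45), ctrl replicate 375 (0.41), HL60 late replicate 398 (0.42) and HL60 late replicate 399 (0.37), and −0.37 (adjusted p = 0.109) in ML1 late, called without ctrl replicate 375 (−0.43), a value that turned to 0.45 after rescaling. Tgfbi encodes a TGF-β-induced matrix protein, with 8.58 ± 0.45 (SD, n = 3) in ctrl and 7.83 ± 0.54 (n = 6) in late. It fell by −0.75 (adjusted p = 0.0745), lost without ctrl replicate 373 (−0.50), ctrl replicate 375 (−0.83), ML1 late replicate 581 (−0.74), ML1 late replicate 582 (−0.58) and ML1 late replicate 583 (−0.71) and after rescaling (−0.06). By line it was −0.36 (adjusted p = 0.548) with HL60, and −1.14 (adjusted p = 0.00562) with ML1, and the ML1 call was lost after rescaling (−0.33).

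In all, 13 of the 40 members differed between HL60 and ML1 late, 12 higher with HL60 and 1 (Inhba) lower, against a background of 4.09% of all genes, 3.16% higher and 0.932% lower. After rescaling, 9 were higher and 1 lower, while the direction of the background turned (5.43% of all genes, 37% of these higher). The 12 were Bmp3, Bmp4, Bmp7, Gdf10, Tgfbr2, Ltbp4, Fst, Bambi, Smad9, Id1, Id2 and Id3. All 8 osteoblast and osteocyte markers and 7 of 12 chondrocyte markers were also higher with HL60. Bglap, which encodes osteocalcin, was at 13.24, 12.94 and 12.77 in HL60 late and 10.04, 9.32 and 9.63 in ML1 late, against 15.25, 15.27 and 15.36 in ctrl. CAR cell markers did not separate the lines, with means of 12.21 ± 0.19 (SD, n = 3) in HL60 late and 12.21 ± 0.12 in ML1 late. The part of these cells in the difference was not tested. In ch+ and in ch-, limma called 0 of 40 members between the lines, with 6 and 4 at an unadjusted p under 0.05, and 0.0154% and 0.0539% of all genes were called.

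**Figure D2:**
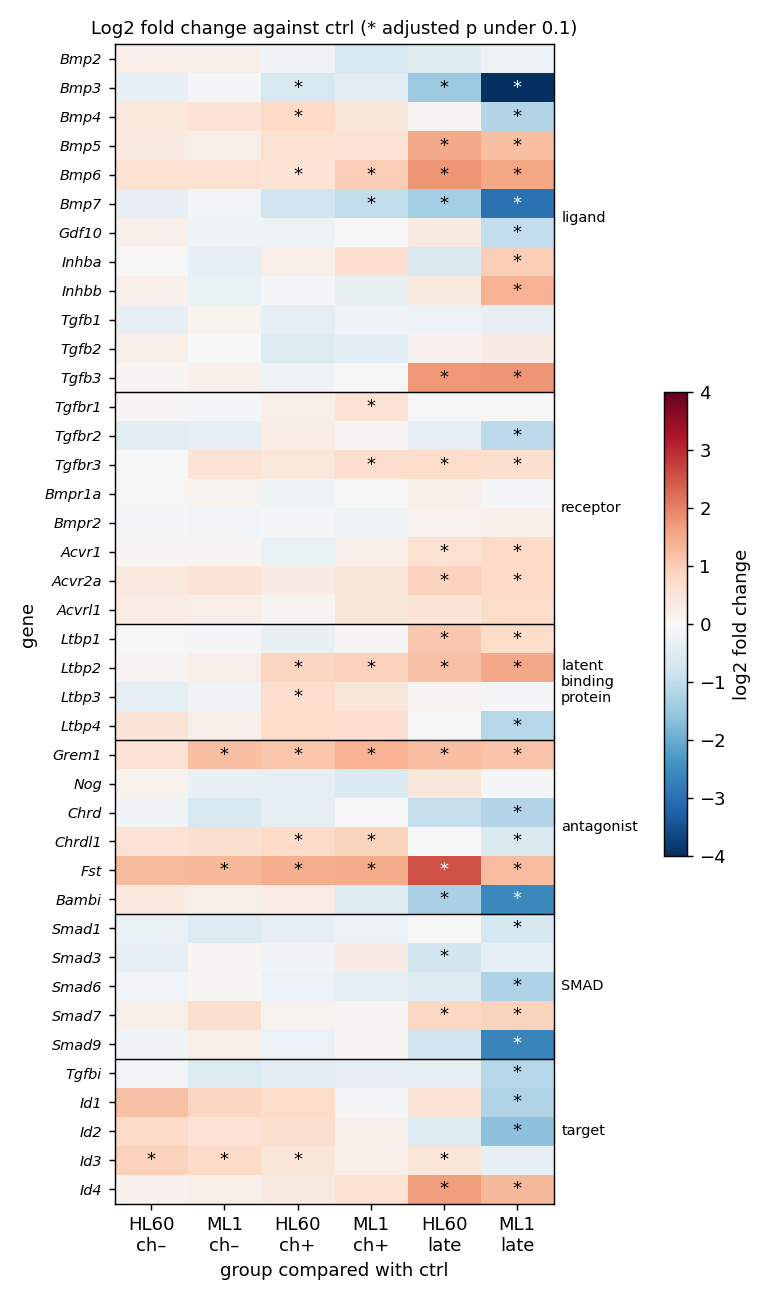
Log2 fold changes (color scale) of the 40 tested members (vertical axis, by role) against ctrl for ch-, ch+ and late of each line (horizontal axis), with a star at an adjusted p under 0.1. Bmp5, Bmp6, Tgfb3, Ltbp1, Ltbp2, Grem1, Fst and Id4 rose and Bmp3, Bmp7 and Bambi fell with both lines in late. After rescaling to equal library sums the starred ML1 late values of Chrdl1 and Smad1 turned to 0.24 and 0.11. Values without a star also turned, among them Ltbp4 in HL60 late and Tgfb1, Bmpr1a, Ltbp3, Nog, Smad3 and Id3 in ML1 late.

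Promoters of RefSeq (GRCm38.p6) matched 29 of the 43 members. In the 250 bases before the gene start, 10 of these 29 genes held GGCGCC, a GC-rich palindrome that BMP SMADs can bind, against 9.59% of all 32851 promoters, and 5 held CAGACA on either strand, a form of the SMAD3 box, against 17.1%. The members with GGCGCC were Bmpr1a, Bmpr2, Chrd, Grem1, Id2, Id4, Ltbp4, Smad9, Tgfbi and Tgfbr1, and those with CAGACA Bmp5, Bmpr1b, Ltbp1, Tgfb2 and Tgfbr1. A match is a description of the letters and not a bound site. Shown 5′ to 3′ are the windows of the SMAD genes lower in late (Smad3, 0.14 after rescaling, at chr9:63757995-63758244 on the minus strand, Smad6 at chr9:64022060-64022309 on the minus strand and Smad9 at chr3:54755332-54755581 on the plus strand) and of the Id gene that rose (Id4 at chr13:48260866-48261115 on the plus strand), for comparison of genes of the pathway that moved apart. Capitals mark GGCGCC, which starts at position −51 from the RefSeq start of Smad9 and −148 from that of Id4. Neither motif is in the windows of Smad3 and Smad6. The GENCODE start of Id4 (chr13:48261228) lies downstream of the end of its window, while the other windows adjoin their GENCODE starts.
Smad3: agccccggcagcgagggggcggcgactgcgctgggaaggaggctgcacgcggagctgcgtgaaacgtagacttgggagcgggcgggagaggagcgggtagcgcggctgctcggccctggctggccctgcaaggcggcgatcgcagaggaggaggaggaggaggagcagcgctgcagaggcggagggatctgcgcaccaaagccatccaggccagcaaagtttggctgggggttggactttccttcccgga
Smad6: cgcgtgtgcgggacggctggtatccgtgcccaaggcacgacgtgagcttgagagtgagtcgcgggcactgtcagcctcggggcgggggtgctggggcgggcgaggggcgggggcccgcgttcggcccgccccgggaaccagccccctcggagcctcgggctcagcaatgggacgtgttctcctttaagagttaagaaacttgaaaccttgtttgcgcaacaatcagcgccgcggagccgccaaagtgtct
Smad9: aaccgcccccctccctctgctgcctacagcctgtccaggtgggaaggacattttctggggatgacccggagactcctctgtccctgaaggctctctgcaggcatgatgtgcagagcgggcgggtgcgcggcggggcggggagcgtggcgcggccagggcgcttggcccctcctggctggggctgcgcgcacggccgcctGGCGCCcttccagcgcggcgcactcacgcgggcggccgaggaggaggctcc
Id4: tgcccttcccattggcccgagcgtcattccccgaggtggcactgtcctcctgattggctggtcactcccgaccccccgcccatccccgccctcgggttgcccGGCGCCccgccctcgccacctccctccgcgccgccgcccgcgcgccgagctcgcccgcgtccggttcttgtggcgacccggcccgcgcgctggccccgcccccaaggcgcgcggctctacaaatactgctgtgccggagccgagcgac

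Of 66 further pathway genes in the table, 43 passed the filter, and in late 10 of them rose and 8 fell (41.9% called, background 21.5%). This list too was chosen with earlier results of these data known, so its shares are descriptions. Rescaling gave 30 and 3, with 64% of all genes called, 93.8% of these higher. The count of 8 was 4 without ctrl replicates 373 or 375 and 5 without ML1 late replicates 582 or 583. The higher ones with a log2 fold change of at least 1 were Hey1 (2.40), a BMP and Notch target, Fstl1 (1.65), a follistatin-like glycoprotein, Pmepa1 (1.35), a TGF-β-induced feedback inhibitor, Gdf15 (1.31), Tgif2 (1.2), a SMAD corepressor, and Acvr1b (1.12), the activin receptor ALK4. The lower ones were Col1a1 (−2.92), Dcn (−2.12), which encodes the TGF-β-binding proteoglycan decorin, Acta2 (−1.49), Nbl1 (−1.32), a BMP antagonist, and Bmp8a (−1.19). The call of Gdf15 was lost without ctrl replicate 373 (1.17), ctrl replicate 375 (1.05), ML1 late replicate 581 (1.12), ML1 late replicate 582 (1.21) and ML1 late replicate 583 (1.15), that of Nbl1 without ctrl replicate 373 (−1.14) and after rescaling (−0.62), and that of Bmp8a without ctrl replicate 373 (−1.02), ctrl replicate 374 (−1.28), ctrl replicate 375 (−1.27), ML1 late replicate 581 (−1.16), ML1 late replicate 582 (−0.94) and ML1 late replicate 583 (−1.01) and after rescaling (−0.50). With HL60 alone the values were Hey1 2.29, Fstl1 1.75, Pmepa1 1.52, Gdf15 0.58, Tgif2 0.91, Acvr1b 1.04, Col1a1 −1.67, Dcn −1.2, Acta2 −1.19, Nbl1 −0.49 and Bmp8a −0.41, of which Gdf15, Tgif2, Nbl1 and Bmp8a were not called, and Nbl1 and Bmp8a turned to 0.08 and 0.16 after rescaling. The HL60 call of Acvr1b was lost without ctrl replicate 374 (0.92), ctrl replicate 375 (0.95) and HL60 late replicate 398 (0.78). In ch+ against ctrl, 3 rose and 1 fell (9.3% called, background 6.17%), the latter Acta2 by −2.67 (adjusted p = 2.28e-07), with counts of 1 without ctrl replicate 375 for the higher and of 2 without ctrl replicate 375 or ML1 ch+ replicate 538 for the lower. Rescaling gave 4 and 1, with 6.25% of all genes called, 66.7% of these higher. Acta2 is also 1 of the 7 smooth muscle markers, of which 6 fell in ch+. In ch-, 2 rose and 2 fell (9.3% called, background 1.92%), with Hey1 at 1.03 (adjusted p = 0.0759), lost without ctrl replicate 373 (1.15), ctrl replicate 374 (0.62), HL60 ch- replicate 527 (1.02), ML1 ch- replicate 544 (0.93) and ML1 ch- replicate 546 (1.0) and after rescaling (0.96). Rescaling gave 0 and 2, with 1.66% of all genes called, 41.9% of these higher. The number of higher genes there was 0 without ctrl replicate 374 and 1 without ctrl replicates 373 or 375 or HL60 ch- replicate 527 or ML1 ch- replicates 544 or 546. Between ch+ and ch-, 4 were higher and 2 lower (14% called, background 6.26%), with Htra1, a secreted protease, at 1.46 (adjusted p = 4.37e-08) and Acta2 at −1.94 (adjusted p = 6.21e-07). Rescaling gave 7 and 1, with 8.25% of all genes called, 78.6% of these higher. The number of lower genes there was 1 without HL60 ch+ replicates 524 or 525 or HL60 ch- replicates 528 or 529 or ML1 ch+ replicates 539 or 541. From ch+ to late, 11 were higher and 4 lower (34.9% called, background 19.7%), among them Hey1 (1.87), Acta2 (1.18), Pmepa1 (1.12), Nbl1 (−1.49), Dcn (−1.90) and Col1a1 (−2.39), and the number of lower genes was 7 without HL60 late replicate 398. Rescaling gave 35 and 4, with 69.6% of all genes called, 93.5% of these higher.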

How the data were processed

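RNA-seq was made from sorted Nes low cells of 21 samples in 7 groups of 3, grouped by title and time point. According to the methods and the submitters' processing notes, the authors aligned reads to mm10 with STAR 2.5.1b, counted Ensembl genes with RSEM 1.2.29 with strand taken into account, and normalized with DESeq2, version 1.10.1 in the notes and 1.22.2 in the methods. The deposited values (−2.33 to 22.44) were read as the authors' regularized log2 values, although the table is titled normalized counts and the methods name log10, on which 22.44 would be an impossible number of reads. All fold changes rest on this reading. The methods give a typical read yield only, and counts and the depth of each library are not used here, so precision at low levels is unknown and shrinkage by the authors draws fold changes of low genes toward 0.

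GENCODE M21 symbols matched 26686 of 26852 IDs. Genes with a mean of at least 3.32, the log2 of 10, were kept (12976), and limma 3.58.1 in R 4.3.3 was fitted over them with a mean-variance trend, on 4 groups for pooled lines and 7 groups for comparisons by line and between lines, with Benjamini-Hochberg adjustment and a threshold of 0.1. The fit was tested on simulated data. Alternatives were no filter, quantile normalization, rescaling to equal library sums, no trend, a threshold of 0.05, a fit of 7 groups and leaving out each library. The difference of ch+ and ch- between lines and late against ch+ by line were added after seeing the data, as were rescaling and leaving out libraries for further pathway genes and markers. Labels do not say whether libraries are separate mice, so p-values measure the spread between libraries. Level per kilobase is the log2 value minus the log2 of exon length in kilobases. Python 3.11.15 and matplotlib 3.10.9 made the tables and plots.

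Members and lists were chosen with earlier results of these data known. Members called with a change of at least 1 in a comparison with pooled lines, or called between the lines, are given by library, other called members by means, and the rest by ranges, and further pathway genes are named where called with a change of at least 1, but withheld items are not reported here. Further listed markers gave these calls in late against ctrl, with log2 sums in ctrl and late: endothelial cells (Cdh5 the most abundant, Tie1 under the filter) 0 higher and 0 lower of 7 tested (8.43 to 8.73 and 7.94 to 8.89), pericytes (Rgs5) 1 and 2 of 5 (13.40 to 13.83 and 13.28 to 13.57), skeletal muscle 0 and 1 of 4 (5.07 to 6.70 and 4.78 to 5.02) and Schwann cells 0 and 1 of 3 (5.98 to 7.63 and 5.84 to 6.69), and their part in the results was not tested. The counts of lower markers were 1 without ctrl replicate 374 or HL60 late replicates 397, 398 or 399 for endothelial cells, 0 without ctrl replicate 373 for skeletal muscle and 0 without ctrl replicate 374 or ML1 late replicate 583 or HL60 late replicates 397, 398 or 399 for Schwann cells.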

Additional observations from a re-analysis of the deposited data

Results flagged for a closer look

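Within groups of 6 libraries, 4 of the 120 groups looked at for the 40 tested members held a library far from the rest by Dixon's criterion, 3.33%, where chance alone marks about 1 in 20. These were Inhba in ML1 ch- replicate 544 (7.01, the next lowest at 7.72), Acvr1 in HL60 late replicate 398 (9.06, next 9.49), Id2 in ML1 ch- replicate 546 (7.06, next 7.92) and Id4 in HL60 ch+ replicate 524 (6.40, next 6.98). Groups of 3 were not looked at.

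The test of HL60 late against ML1 late set these members apart, with positive log2 differences higher in HL60: Bmp3 (2.58), Bmp4 (1.27), Bmp7 (1.61), Gdf10 (1.34), Inhba (−1.56), Tgfbr2 (0.69), Ltbp4 (1.14), Fst (1.33), Bambi (1.27), Smad9 (1.88), Id1 (1.77), Id2 (1.12) and Id3 (0.85). Acvr1 was marked because its HL60 ch+ libraries (8.33, 8.53 and 8.59) all lay below and its ML1 ch+ libraries (8.82, 9.21 and 8.99) all above ctrl (8.78, 8.65 and 8.80). The opposite movement itself was not tested, and the direct comparison of the lines in ch+ gave −0.52 (limma, adjusted p = 0.538).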

How the results depend on the processing

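No paired analysis was possible because every library has a replicate number of its own. Counts of called members that moved by more than 1.5 times are grouped by setting, and the cause was not tested unless the setting itself gives it. Without the filter, which adds genes to the adjustment, limma called 4 members in ch+ against ctrl, 1 in ch- against ctrl, 3 in ch+ against ch-, 2 in HL60 ch+, 3 in ML1 ch+ and 0 in ML1 ch+ against ch- (12 at an unadjusted p under 0.05 with the filter). Quantile normalization gave 2 in HL60 ch- (1.5%) and 6 in ML1 ch- (2.31%) against ctrl. Rescaling to equal sums gave 1 in ch- against ctrl (1.66%) and 28 in HL60 late (42.6%). Without the trend, the counts were 1 in ch- (1.53%), 3 in HL60 ch+ (3.8%), 4 in ML1 ch+ (5.18%) and 0 in ML1 ch+ against ch- (3.15%). At a threshold of 0.05 they were 1 in ch- (1.2%) and 0 in ML1 ch+ against ch- (2.97%). The fit of 7 groups gave 11 in ch+ (8.18%), 5 in ch- (2.72%) and 8 in ch+ against ch- (7.72%). Leaving out each library gave 3 to 7 in ch+, 0 to 5 in ch-, 1 to 4 in HL60 ch-, 2 to 6 in ML1 ch-, 3 to 7 in HL60 ch+, 5 to 11 in ML1 ch+ and 0 to 4 in ML1 ch+ against ch-. The share of all genes moved as well, from 4.18% to 6.12% in ch+ with the lines pooled. The pooled late count stayed within 1.5 times of 22 under every alternative run.

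Among values of the members called before or after, directions reversed only under rescaling, which moves all genes together, and reversals of values called in neither are not listed. In late against ctrl these were Tgfb1 (0.42), Chrdl1 (0.41) and Smad3 (0.14). From ch+ to late they were Tgfb1 (0.59), Tgfbr1 (0.22), Ltbp3 (0.05), Grem1 (0.55), Smad1 (0.57), Smad6 (0.04) and Id3 (0.29). In HL60 late it was Ltbp4 (0.56), and in ML1 late Tgfb1 (0.50), Bmpr1a (0.76), Ltbp3 (0.74), Nog (0.76), Chrdl1 (0.24), Smad1 (0.11), Smad3 (0.43) and Id3 (0.45). From ch+ to late by line they were Id3 (−0.01 to 0.46) with HL60 and Tgfb1 (−0.17 to 0.59), Tgfbr1 (−0.57 to 0.19), Tgfbr3 (−0.03 to 0.73), Bmpr1a (−0.04 to 0.72), Ltbp3 (−0.51 to 0.25), Grem1 (−0.24 to 0.52), Smad3 (−0.70 to 0.06) and Id3 (−0.64 to 0.13) with ML1. With 3 ctrl libraries shared by all comparisons and the depth of each library unknown, small changes of low genes could not be resolved. With 3 libraries of each line in a group, early calls by line rest on few values. The early groups also carried more blood and red cell transcripts than ctrl, ch+ and late fewer chondrocyte and smooth muscle transcripts, and late fewer osteoblast transcripts, and these were not separated from changes within Nes low cells. Transcripts were measured, and neither protein nor SMAD phosphorylation was analysed here.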
